A study of Mus musculus with 2 samples.

Results

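The genes described here are 40 mouse genes of DNA repair: 11 of homologous recombination, 9 of the Fanconi anaemia pathway and its helicases, 4 of mismatch repair, 5 of non-homologous end joining, 3 of single strand break repair, 4 of break sensing and end resection, and 4 checkpoint kinases. They were chosen by name, with earlier results of these data known. All 40 were matched by symbol to the 16190 genes of a table of raw RNA-seq counts. The RNA came from cells labelled as satellite cells, the stem cells of skeletal muscle, taken from the tibialis anterior muscle of C57BL/6 mice. 1 library has the genotype Cipc flox/flox (titled Cipc+/+) and is the control. The other has the genotype Cipc scko (titled Cipc-/-), and the series title speaks of a satellite cell deletion of Cipc, a gene of the circadian clock. That title also names mdx mice, but the labels of these 2 libraries give no mdx allele. Sources used here do not give the Cre driver, the number or pooling of animals, their age or sex, or the hour of collection. RNA of sex-linked genes differed between the 2 libraries, as given below. A difference of sex thus cannot be told apart from genotype for any gene. Paired values below name the scko library first and the flox/flox library second, and log2 ratios are of the first over the second. With 1 library per genotype nothing below has a replicate check: a difference describes 2 libraries, and each interval covers counting error only.

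Cells mend broken DNA by several routes. Homologous recombination copies the sister chromatid and therefore works in S and G2 phase. End joining religates broken ends in any phase of the cell cycle and is the main route in cells that have left it. The Fanconi pathway unhooks crosslinks between strands ahead of replication forks, mismatch repair corrects errors of replication, and single strand break repair seals nicks. Many genes of recombination, the Fanconi pathway and mismatch repair are transcribed with the replication genes at the G1/S transition, whereas genes of single strand break repair and end joining are expressed in resting cells too. Quiescent satellite cells are known to rely on end joining.

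The libraries held 16830168 counts (Cipc scko) and 16145870 counts (Cipc flox/flox), scaled here to CPM, the count relative to library size, with TMM factors. Cipc itself had 594 and 1907 counts, for a log2 ratio of -1.61 (95% counting interval -1.74 to -1.47). Of 7 markers of differentiating muscle, 7 were higher in Cipc scko, and their summed level was 16674 CPM against 52.2 CPM. Of 8 measured satellite cell markers 2 were higher and 1 lower. The defining marker Pax7 stood at 62.2 and 2.54 CPM, and Cd34 had 3 and 427 counts. Of 3 measured macrophage markers 2 were lower and 1 higher (summed level 5.61 and 46.7 CPM). Of 4 measured endothelial markers 1 passed the filter, Kdr, which was higher (112 and 2 counts). It made up 6.98 of a summed 8.22 CPM in Cipc scko, against a sum of 0.886 CPM in Cipc flox/flox. Below the filter, Tek had 0 and 11 counts, Pecam1 19 and 0, and Cdh5 1 and 2. Of 5 fibro-adipogenic markers 2 were lower, Dcn (1 and 142 counts) and Pdgfra (11 and 147), and 2 higher, the collagen genes Col3a1 and Col1a1, which carried most of the sums of 3031 and 1441 CPM. Of 2 pericyte and smooth muscle markers Cspg4 was lower (7 and 491 counts) and Acta2 higher, and Acta2 carried nearly all of the sums of 12432 and 542.2 CPM. Cdkn1a, which encodes the cell cycle inhibitor p21, stood at 1912 and 391.0 CPM, and the inhibitor gene Cdkn2a had 688 counts and 0. The part of these differences in the repair results was not tested, and in bulk RNA fewer cells of a type and less RNA per cell cannot be told apart.

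Every one of the 40 repair genes was counted in both libraries and passed the filter on low counts. A gene was called lower or higher when its ratio was at least 2-fold and its counting interval excluded equality. By that rule 7 of the 40 were lower in Cipc scko and 0 higher. These were Xrcc5, Fancb, Brca1, Msh6, Exo1, Fancm and Rad50. Among all 12874 genes past the filter 15.9% were called lower, 21.2% higher and 37.2% in either direction. The 17.5% of repair genes called lower thus lay near the background in this setting. Among the 9925 genes with a mean CPM in the range of the 40, 15.3% were called lower, 19.4% higher and 34.7% in either direction. The median log2 ratio of the 40 genes was -0.43, against 0.01 over all genes past the filter. Without regard to size, the interval lay below equality for 21 repair genes, above it for 4 and across it for 15, and over all genes it lay below for 41.4% and above for 41.5% (41.3% and 40.2% in that range of CPM). The ratio was within 1.5-fold of equality for 23 of the 40 (57.5%), against 44.1% of all genes and 46.1% in that range. 7 of the 40 share at least 5% of their exon bases with another gene of the table, and none of these is among the 7 called. The median of the remaining 33 genes was -0.23. The called gene Fancm shares 5.51% of its exon bases with Gm47870 on the other strand, which is not among the genes analysed here.

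**Figure D1:**
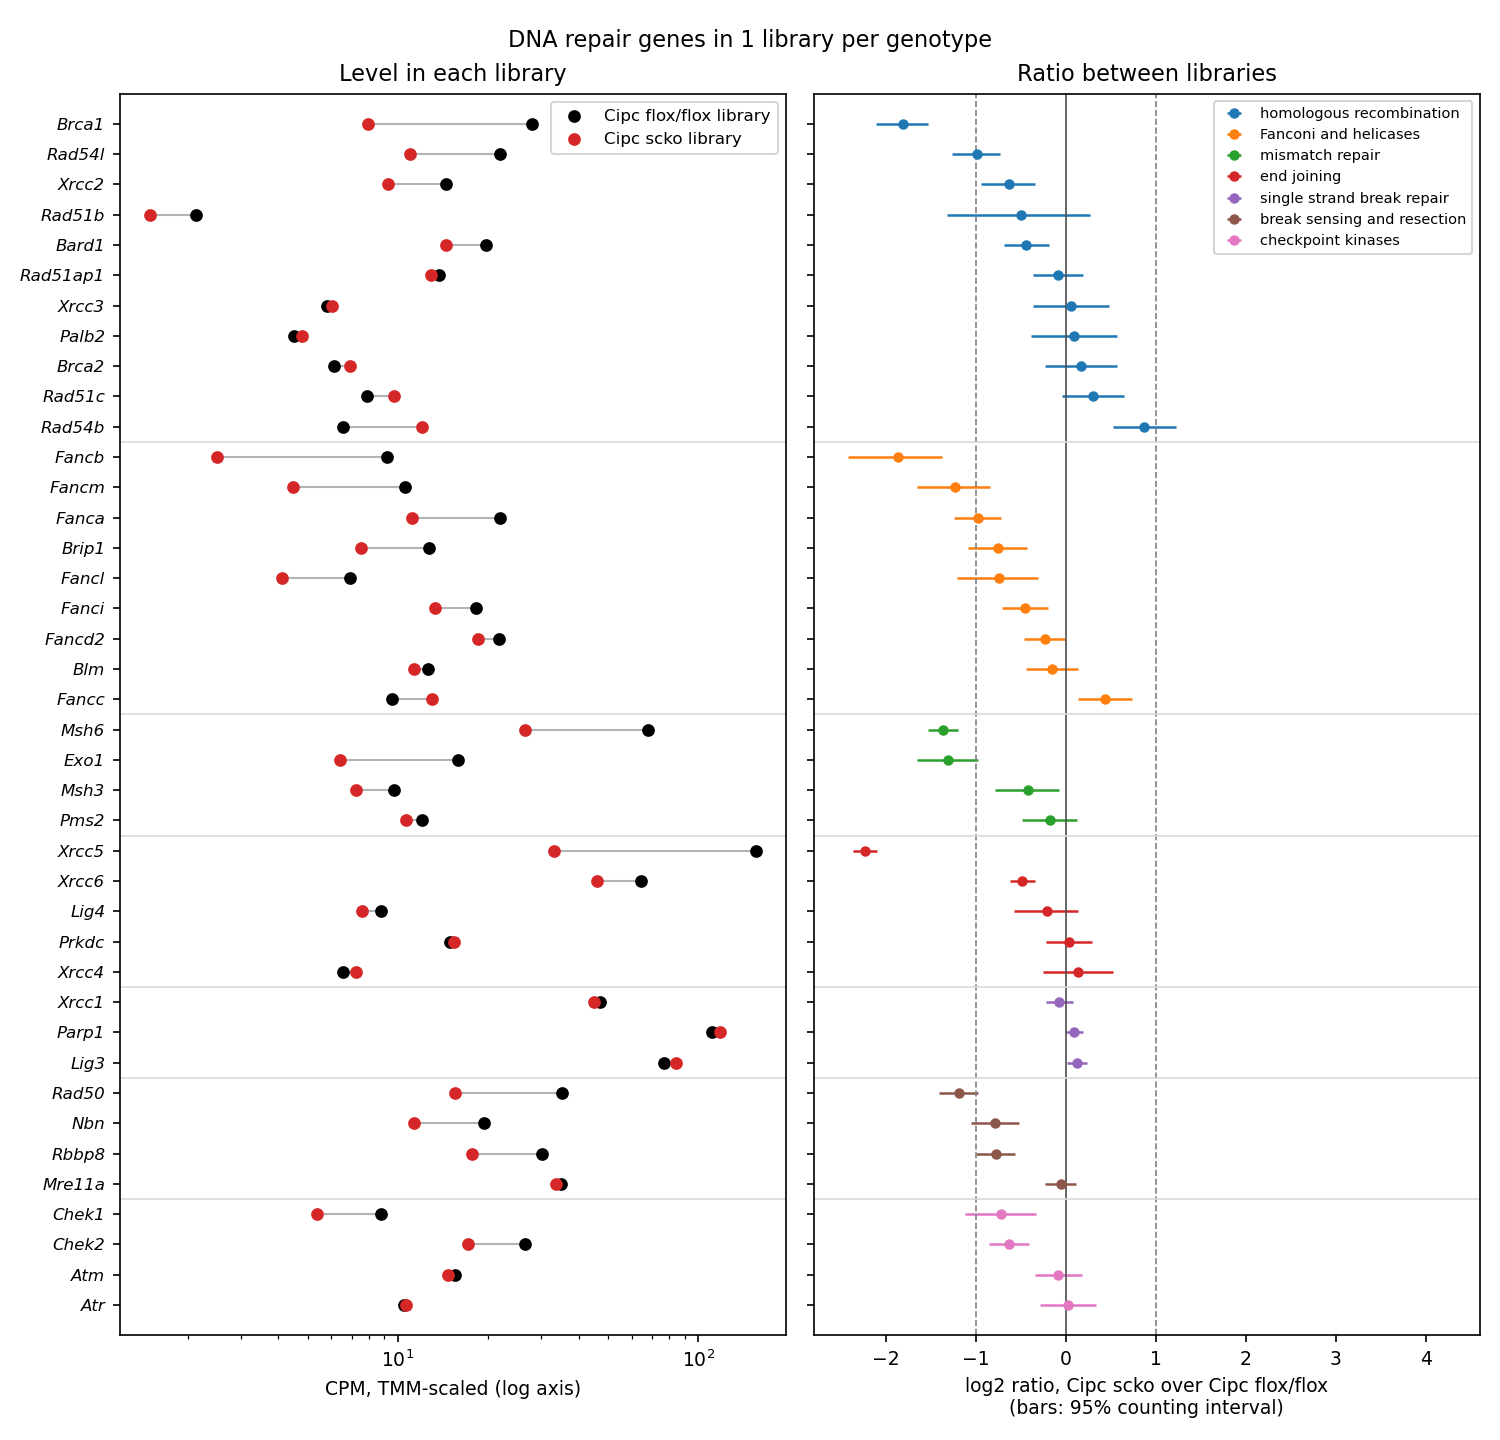
Level of each of the 40 repair genes in the 2 libraries (left, TMM-scaled CPM on a log axis) and log2 ratio (scko over flox/flox) with its 95% counting interval (right, dashed lines at 2-fold), grouped by pathway. Xrcc5 lies furthest to the left at -2.22, the 3 genes of single strand break repair lie within 0.13 of equality, and no point lies to the right of the 2-fold line.

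Start regions of 6 of these genes are shown first: 4 that were lower in Cipc scko (Brca1, Msh6, Xrcc5, Fancb) and 2 that were nearly equal (Brca2, Parp1). They were picked by their ratios and do not stand for the other genes. The sequences are from the RefSeq promoter table on GRCm38.p6 and run 5′ to 3′ on the strand of the gene, ending at the base before the RefSeq start of transcription. Each has up to 250 bases, fewer where an annotated exon lies further upstream. Capitals mark a CCAAT box (CCAAT, or ATTGG on the other strand) or an E2F motif (TTTCGCGC, TTTGGCGC, TTTCCCGC or TTTGCCGC on either strand).
Brca1: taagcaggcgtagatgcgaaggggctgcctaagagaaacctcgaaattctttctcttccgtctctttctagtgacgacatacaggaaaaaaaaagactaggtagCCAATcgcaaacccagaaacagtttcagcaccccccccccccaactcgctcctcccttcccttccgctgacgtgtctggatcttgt
Msh6: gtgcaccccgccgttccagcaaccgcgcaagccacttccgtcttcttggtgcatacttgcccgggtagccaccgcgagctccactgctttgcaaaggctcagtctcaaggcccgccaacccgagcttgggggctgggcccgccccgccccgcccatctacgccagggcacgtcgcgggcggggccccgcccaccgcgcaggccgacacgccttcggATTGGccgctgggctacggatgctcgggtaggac
Xrcc5: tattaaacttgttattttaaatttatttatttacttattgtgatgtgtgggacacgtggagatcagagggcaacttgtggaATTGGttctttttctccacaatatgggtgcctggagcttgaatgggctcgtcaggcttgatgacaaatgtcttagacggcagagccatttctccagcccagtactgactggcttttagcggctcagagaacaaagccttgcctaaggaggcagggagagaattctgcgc
Fancb: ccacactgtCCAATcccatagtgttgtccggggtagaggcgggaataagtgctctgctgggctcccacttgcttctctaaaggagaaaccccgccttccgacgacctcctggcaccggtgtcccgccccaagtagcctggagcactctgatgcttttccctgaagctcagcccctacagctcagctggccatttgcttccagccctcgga
Brca2: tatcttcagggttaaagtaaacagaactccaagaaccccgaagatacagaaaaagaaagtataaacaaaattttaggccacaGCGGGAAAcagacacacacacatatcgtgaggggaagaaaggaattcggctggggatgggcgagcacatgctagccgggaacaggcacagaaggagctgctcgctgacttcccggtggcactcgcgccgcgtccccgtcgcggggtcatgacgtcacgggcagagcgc
Parp1: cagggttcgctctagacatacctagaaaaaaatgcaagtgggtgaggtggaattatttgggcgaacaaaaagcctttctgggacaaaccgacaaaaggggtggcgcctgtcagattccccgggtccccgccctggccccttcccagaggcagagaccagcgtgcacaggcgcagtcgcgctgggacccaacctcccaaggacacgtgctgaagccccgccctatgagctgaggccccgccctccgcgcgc
The stretches are chr11:101551956-101552145 (minus strand) for Brca1, chr17:87974800-87975049 for Msh6, chr1:72307171-72307420 for Xrcc5, chrX:164980382-164980591 for Fancb, chr5:150522371-150522620 for Brca2 and chr1:180568641-180568890 for Parp1, the last 5 on the plus strand.

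The CCAAT box began 86 bases before the start in Brca1, 34 in Msh6, 169 in Xrcc5 and 201 in Fancb. Brca2 had an E2F motif 168 bases before its start, and Parp1 had neither motif in this stretch. Msh6 also had an E2F motif, but outside the stretch shown. Promoter windows of 300 bases (250 before the start and 50 after) were at hand for 32 of the 40 genes. A CCAAT box was in 20 of these 32 (62.5%), against 41.1% of the 27025 genes of the promoter table and 43.2% of those past the filter. All 5 called genes with a window (Xrcc5, Fancb, Brca1, Msh6 and Fancm) had one, but so did 8 of the 13 genes with a window whose log2 ratio was within 0.2 of equality (Pms2, Blm, Rad51ap1, Atm, Xrcc1, Mre11a, Xrcc3 and Palb2). The absence of the box in the stretches of Brca2 and Parp1 is thus not typical of nearly equal genes. The median log2 ratio was -0.49 for the 20 repair genes with the box and -0.09 for the 12 without. Over the 9867 genes of the promoter table past the filter the medians with and without it were 0.01 and 0.02. An E2F motif was in 7 of the 32 (21.9%), against 2.60% of the table and 4.73% of genes past the filter. The ratios of those 7 ran from -1.36 (Msh6) to 0.31 (Rad51c), with a median of -0.44, against -0.18 for the 25 without it. Over the genes of the table past the filter these medians were -0.12 and 0.02. The motif known as CHR (TTTGAA or TTCGAA), which marks many late cell cycle genes, was in 3 of 32 (9.38%), against 21.7% of the table and 16.2% of genes past the filter. No motif searched contains another, both strands were read, and a match is a description of letters only.

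In homologous recombination, 1 of 11 genes was called lower and 0 higher, with a median log2 ratio of -0.09. Over all genes past the filter 15.9% were called lower and 21.2% higher. These shares also stand beside the counts of each pathway below, and no pathway was tested against them. Brca1, the ubiquitin ligase that promotes end resection and recruits the later recombination factors, had 128 and 473 counts (7.97 and 27.9 CPM). The log2 ratio was -1.81 (-2.10 to -1.52), a ratio that 7.43% of genes past the filter equalled or undercut. The flox/flox library was the higher one. Bard1, whose product is the obligate partner of BRCA1, had 232 and 331 counts (-0.44, -0.68 to -0.19). The log2 ratio of Brca1 minus that of Bard1 was -1.37 (exact interval of the odds ratio -1.76 to -0.99), or -0.66 from FPKM with a pseudocount of 1. Brca1 is at chromosome 11, 101488764 to 101551955 (GRCm38, ENSMUSG00000017146).

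Brca2 and Palb2 had intervals that hold equality. Brca2, which loads the recombinase onto single stranded DNA, had 111 and 104 counts (0.17, -0.23 to 0.57). Palb2, which joins BRCA1 to BRCA2, had 77 and 76 counts (0.09, -0.38 to 0.57). The difference within the pair was 0.07 (-0.55 to 0.70). Rad51ap1, a recombinase accessory factor, had 206 and 231 counts (-0.09). Of the recombinase paralogues, Xrcc2 had 149 and 244 counts (-0.63, -0.94 to -0.34), Xrcc3 97 and 98, Rad51c 156 and 133, and Rad51b 24 and 36. Rad51b was the least counted of the 40 and its interval of -1.32 to 0.28 holds equality.

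The translocases Rad54l and Rad54b, which remodel DNA during strand exchange, lay on opposite sides of equality. Rad54l had 176 and 369 counts (-0.99, -1.26 to -0.73), just short of 2-fold. Rad54b had 193 and 111 counts (0.87, 0.53 to 1.22), the highest ratio of all 40 genes and also short of 2-fold. The difference between the 2 genes was -1.86 (-2.31 to -1.43), or -1.11 from FPKM with a pseudocount of 1. Both share exons with neighbours. Rad54b shares 35.8% of its exon bases with Fsbp on the same strand (60 and 25 counts), and Rad54l shares 15.4% with Lrrc41 on the other strand (2318 and 1995 counts). How reads in shared exons were assigned is not stated.

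Genes of the Fanconi pathway and its helicases included 2 of 9 called lower and 0 higher, against 15.9% and 21.2% of all genes. The median log2 ratio of the 9 was -0.75. Fancb, a subunit of the core ubiquitin ligase, had 40 and 155 counts (-1.87, -2.42 to -1.37), or -1.10 from FPKM with a pseudocount of 1. It lies on the X chromosome (164980592 to 164997272), and the libraries also differed in sex-linked RNA: the X-inactivation RNA Xist had 4 and 3898 counts, and the Y-linked Ddx3y 511 and 0. For Fancb, as for every other gene here, this difference cannot be told apart from genotype. The 418 X-linked genes past the filter had a median of -0.12. Fancm, the translocase that anchors the core complex on DNA, had 72 and 179 counts (-1.23, -1.65 to -0.84), and was not called from FPKM with a pseudocount of 1 (-0.65). Fanca, another core subunit, missed the fold limit with 178 and 369 counts (-0.97, -1.24 to -0.71). It shares 10.5% of its exon bases with Zfp276 on the other strand (195 and 157 counts).

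Fancd2 and Fanci, the pair that the core complex ubiquitinates, differed less. Fancd2 had 297 and 368 counts (-0.23, -0.46 to -0.01) and Fanci 213 and 307 (-0.45, -0.71 to -0.19), with a difference between them of 0.22 (-0.13 to 0.56) that holds 0. Of the helicases, Brip1, which works with BRCA1, had 121 and 215 counts (-0.75), and Blm, which dissolves crossed strands, 182 and 213 (-0.15). The ubiquitin ligase subunit Fancl had 66 and 117 counts (-0.75, -1.21 to -0.30). Fancc was the highest of the group, at 208 and 162 counts (0.44, 0.13 to 0.74).

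In mismatch repair, 2 of 4 genes were called lower and 0 higher, against 15.9% and 21.2% of all genes past the filter. The median log2 ratio was -0.86. Msh6, a mismatch sensor subunit that recognises single mispaired bases, had 426 and 1153 counts (-1.36, -1.52 to -1.20). Msh3, the alternative subunit that recognises longer loops, had 116 and 164 counts (-0.42, -0.78 to -0.07). There were 3.67 and 7.03 counts of Msh6 per count of Msh3, a difference of -0.94 (-1.33 to -0.54). Exo1, the exonuclease that removes the faulty strand and also resects breaks, had 103 and 269 counts (-1.30, -1.65 to -0.98), and was not called from FPKM with a pseudocount of 1 (-0.70). Pms2, a subunit of the nicking endonuclease, had 171 and 204 counts (-0.18, -0.48 to 0.12). A transcript of the gene Gm11855 matches Msh6 at 94.1% identity over 1872 aligned bases and is not among the genes analysed here.

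End joining held the largest difference of all 40 genes. Xrcc5 (ENSMUSG00000026187, chromosome 1, 72307421 to 72394952) encodes Ku80, which with Ku70 forms the ring that binds broken ends. It had 532 and 2624 counts (33.1 and 155.0 CPM). The log2 ratio was -2.22 (-2.36 to -2.09), a 4.67-fold lower level, and 745 of 12874 genes (5.79%) had a ratio as low or lower. Xrcc6, which encodes Ku70, had 740 and 1089 counts (-0.48, -0.62 to -0.35). The difference between Xrcc5 and Xrcc6 was -1.74 (-1.94 to -1.55), a value that does not depend on how the libraries are scaled. Relative to the medians of their chromosomes it was -2.41. The transcripts of the 2 subunits were thus in different proportion in the 2 libraries.

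The remaining end joining genes had intervals that hold equality, which does not show that their levels were alike. Prkdc, the DNA-dependent kinase that Ku recruits, had 246 and 253 counts (0.04, -0.22 to 0.29). The ligase Lig4 had 122 and 149 (-0.21, -0.57 to 0.14) and its scaffold Xrcc4 116 and 111 (0.14, -0.25 to 0.53). Of the 5 genes 1 was thus called lower and 0 higher, with a median of -0.21. Xrcc6 is the only one of the 40 on chromosome 15, whose 520 genes past the filter had a median log2 ratio of -0.68. Relative to that median its ratio was 0.20 instead of -0.48. It also shares 7.69% of its exon bases with Desi1 on the other strand (668 and 2120 counts).

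Levels between genes were compared per length, with the FPKM that the authors deposited. Xrcc5 had the highest FPKM of the 40 genes in Cipc flox/flox (63.6), ahead of Msh6 (16.8) and Parp1 (15.8). In Cipc scko the first place was held by Parp1 (15.3), with Xrcc5 at 12.4, Xrcc6 at 6.71 and Msh6 at 5.95. The FPKM of Xrcc5 was 1.84 and 6.18 times that of Xrcc6. These proportions lean on the length used. The length implied by counts and FPKM was over 5% above the annotated exon length for 32 of the 40 genes, over 5% below it for 3 and within 5% for 5, and ran from 30.9% (Rbbp8) to 226% (Lig3) of it. With the longest annotated transcript as the length, the proportion of Xrcc5 to Xrcc6 was 0.927 and 3.11. The difference between the libraries is the same by construction, but whether Xrcc5 stands above Xrcc6 in Cipc scko depends on the length.

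Single strand break repair showed the smallest differences, with 0 of 3 genes called and a median log2 ratio of 0.10. Parp1, the sensor of DNA nicks that builds poly(ADP-ribose), had 1900 and 1875 counts (0.10, 0.003 to 0.19). Lig3, the ligase of this route, had 1351 and 1304 counts (0.13, 0.02 to 0.24), and 25.1% of its exon bases are shared with Rffl on the other strand. Xrcc1, the scaffold that carries LIG3, had 721 and 797 counts (-0.07, -0.22 to 0.08). Scaled by library totals, which shifts the median of all genes from 0.01 to -0.13, the ratios of Parp1 and Lig3 were -0.04 and -0.01, so their direction depends on the scaling. The summed level of the 3 genes was 247.4 and 234.9 CPM.

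Of the 4 genes of break sensing and resection 1 was called lower and 0 higher (median -0.78). The MRN complex senses ends and starts resection. Its coiled-coil subunit Rad50 had 248 and 595 counts (-1.18, -1.41 to -0.97). Its nuclease subunit Mre11a had 540 and 592 counts (-0.06, -0.23 to 0.11), which gives 2.18 and 0.995 counts of Mre11a per count of Rad50 and a difference of 1.13 (0.85 to 1.41), or 0.76 relative to the medians of their chromosomes. The third subunit, Nbn, had 181 and 328 counts (-0.78, -1.05 to -0.52). Rbbp8, which encodes the resection factor CtIP, had 283 and 512 counts (-0.78, -0.99 to -0.57).

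Of the checkpoint kinases 0 of 4 were called (median -0.35). The upstream kinases were near equality: Atm, activated by double strand breaks, had 235 and 262 counts (-0.08, -0.34 to 0.18), and Atr, activated by stalled forks, 171 and 177 (0.03, -0.29 to 0.34). The downstream kinases had intervals below equality: Chek1 had 86 and 149 counts (-0.71, -1.12 to -0.32) and Chek2 275 and 448 (-0.63, -0.85 to -0.41). The log2 ratio of Atr minus that of its usual substrate kinase Chek1 was 0.74 (0.24 to 1.25), and that of Atm minus Chek2 was 0.55 (0.20 to 0.89). Atr and Chek1 lie on the same chromosome, whereas Atm minus Chek2 was 0.26 relative to the chromosome medians.

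19 pairs of genes that act in one complex or step were set against each other, and for 13 of them the counting interval of the difference excluded 0. With 19 intervals of 95% some may exclude 0 by counting error alone, and no adjustment was made. Over all genes past the filter the interval of a single ratio lay below equality for 41.4% and above it for 41.5%. Pairs of unrelated genes were not compared, so the 13 do not set partner genes apart from other pairs. The pairs whose interval held 0 were Brca2 and Palb2, Fancd2 and Fanci, Fanca and Fancm, Xrcc4 and Lig4, Rad51b and Rad51c, and Xrcc1 and Parp1. Such an interval does not show that 2 genes were alike. The widest of these, for Rad51b and Rad51c, ran from -1.70 to 0.05. Relative to the median of each gene's chromosome, Nbn minus Rad50 was 0.05 in place of 0.40, Brip1 minus Blm -0.07 in place of -0.60, Fancd2 minus Fanci 0.67 in place of 0.22, Xrcc1 minus Lig3 -0.72 in place of -0.20 and Xrcc1 minus Parp1 -0.58 in place of -0.16. On the same scale Brca2 minus Palb2 was 0.51 and Fanca minus Fancm 0.07.

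**Figure D2:**
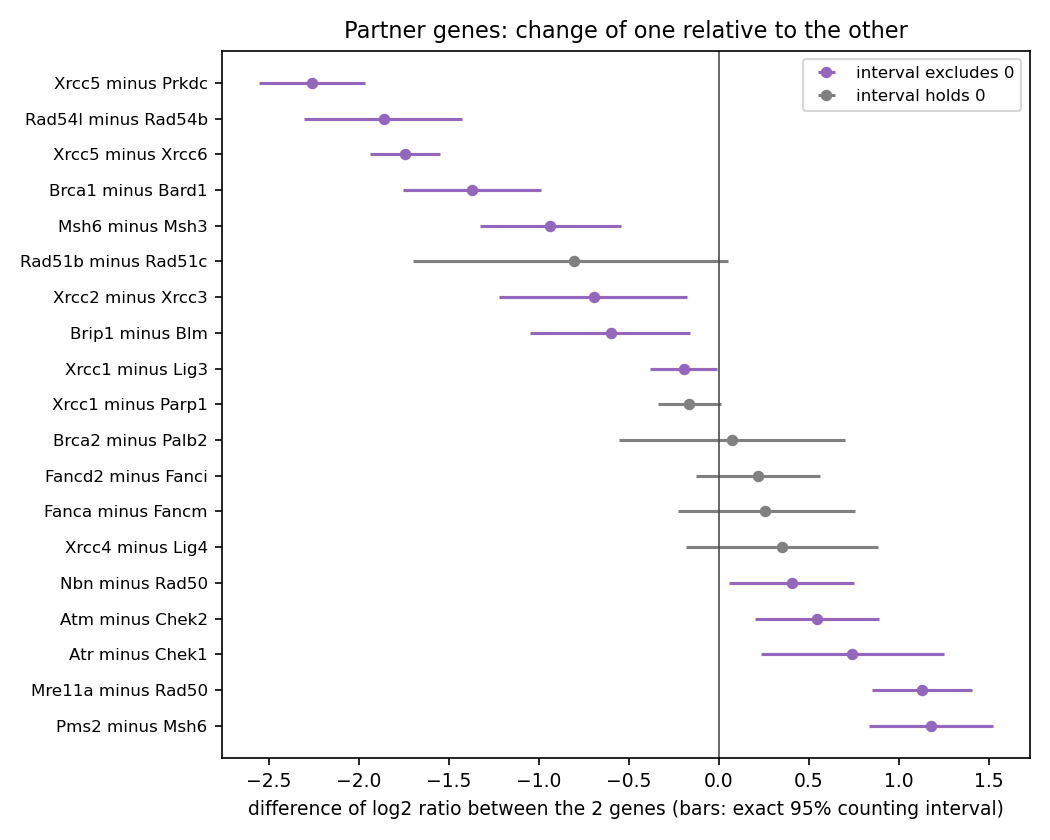
Difference of the log2 ratio of the libraries between 2 genes of a complex or repair step, with the exact 95% counting interval, for 19 pairs. Xrcc5 relative to Prkdc (-2.26) and Pms2 relative to Msh6 (1.18) are the 2 ends of the range, and 6 grey pairs have an interval that holds 0.

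Several repair genes start back to back with another gene. For 22 of the 40 an annotated gene starts within 1000 bases on the other strand, and 18 of these neighbours passed the filter. Of the 18 neighbours 4 were called lower and 0 higher, where 15.9% of all genes past the filter were called lower and 21.2% higher. The interval of the difference between the 2 genes excluded 0 for 9 of 18 and held it for 9. Pairs of genes that are not neighbours were not compared. Brca1 (-1.81) starts 194 bases from Nbr1, an autophagy receptor gene, which had 1885 and 1983 counts (0.00, -0.09 to 0.09). Prkdc (0.04) starts 466 bases from the replicative helicase gene Mcm4, which had 631 and 1723 counts (-1.37, -1.51 to -1.24). The difference between members of these 2 pairs was -1.81 (-2.12 to -1.51) and 1.41 (1.12 to 1.70).

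Other neighbours called lower were D6Wsu163e beside Rad51ap1 (-1.26 against -0.09), Zfyve26 beside Rad51b (-1.03 against -0.50) and Mospd2 beside Fancb (-1.24 against -1.87). Fancb and Mospd2 were the only pair in which both were called. Chek2 (-0.63) stood against Hscb (0.93), Rad54l (-0.99) against Pomgnt1 (0.49) and Brip1 (-0.75) against Brip1os (-0.05). In the pairs of Atm and Npat, Xrcc3 and Zfyve21, Mre11a and Ankrd49, and Pms2 and Aimp2 the ratios lay within 0.06 of each other. Further pairs were Palb2 with Dctn5 (0.49), Xrcc4 with Tmem167 (-0.29), Lig4 with Abhd13 (0.01), Fancd2 with Emc3 (-0.46) and Lig3 with the antisense gene Gm11423 (0.77). Without knowledge of strand in the counting, reads where such genes overlap cannot be told apart.

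**Figure D3:**
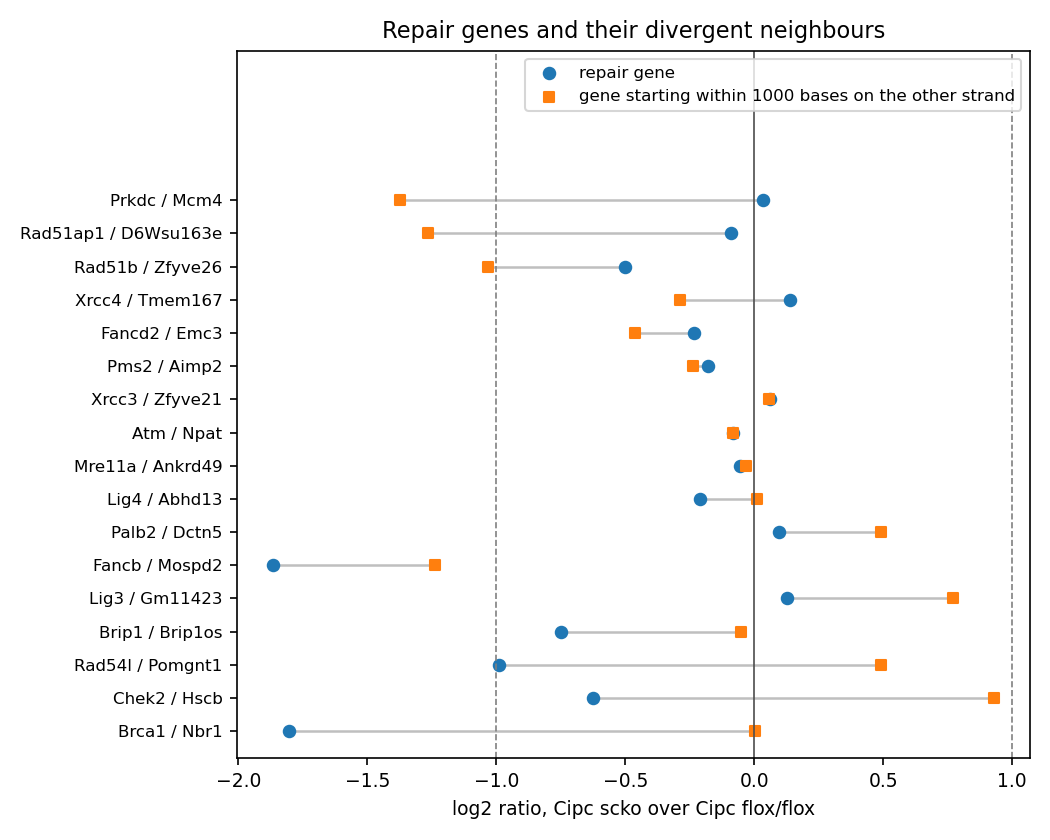
Log2 ratio of 17 repair genes (circles) and of the gene that starts within 1000 bases on the other strand (squares), joined by a line, with dashed lines at 2-fold. Brca1 lies at -1.81 with Nbr1 at 0.00, and Prkdc at 0.04 with Mcm4 at -1.37.

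Other repair genes were summarised for comparison. Of 113 measured in lists of 114, 16 were called lower and 5 higher, with a median log2 ratio of -0.16. Among all genes past the filter 15.9% were called lower and 21.2% higher. These shares also stand beside the counts of each list below. Among 22 further genes of recombination and resolution 6 were lower and 1, Rmi2, higher (median -0.35). The resection nuclease Dna2 (-2.29) and the end joining polymerase Polq (-1.86) were the lowest with a mean CPM of at least 5, and Swsap1 (0.70) and the helicase Wrn (0.62) the highest. Rmi2 stood at 1.75 on 68 and 21 counts. Of 10 further Fanconi genes 1 was lower (median 0.06), Faap24 at -1.10, followed by the deubiquitinase Usp1 at -0.67, with Faap20 (0.81) and Fancg (0.68) at the upper end. Of 4 further mismatch repair genes 1, Mlh3, was higher (1.24) and 0 lower (median -0.01). Of 9 further end joining genes 2, Aplf (-1.19) and Dclre1c (-1.15), were lower. Tdp2 was at -0.72 and Paxx at 0.77 (median of the 9 genes -0.47).

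Lists of other routes were mixed. Of 17 measured base excision genes 1 was lower, the endonuclease Apex1 (-1.36), and 1 higher, the glycosylase Neil1 (2.02), with Lig1 at -0.76 and Aptx at 0.82 (median -0.10). Of 19 nucleotide excision genes 1 was lower, Ercc3 (-1.14), and 2 higher, Ercc2 (1.10) and Ercc8 (1.01), with Gtf2h2 at -0.63 (median 0.19). Of 10 translesion genes 3 were lower, Rad18 (-1.45), Rev3l (-1.41) and Shprh (-1.04), and 0 higher, while the polymerase Poli stood at 0.95 and Mad2l2 at 0.67 (median -0.09). Of 22 genes of checkpoint signalling and break chromatin 2 were lower, Wee1 (-1.62) and Atrip (-1.55), and 0 higher. The fork protein gene Clspn stood at -0.93, Trp53bp1 at 0.57 and Uimc1 at 0.76 (median -0.34).

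Genes of replication and mitosis were also counted. Of 31 S phase genes, none of them among the 40, 18 were called lower and 0 higher (median -1.09). The chromatin ATPase gene Atad2 (-2.13) and Wdr76 (-1.90) were the lowest with a mean CPM of at least 5, and E2f8 (-0.11) and Cdca7 (-0.09) the highest. The G2/M list held 9 lower calls among 24 genes and no higher one (median -0.87), from Bub1 (-1.75) and Anln (-1.43) to Plk1 (-0.29) and Aurkb (-0.24). The proliferation marker Mki67 had 872 and 2027 counts (-1.14, -1.26 to -1.03). The share of the repair differences that goes with these proliferation genes was not tested, and no test of the difference between lists was made.

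**Figure D4:**
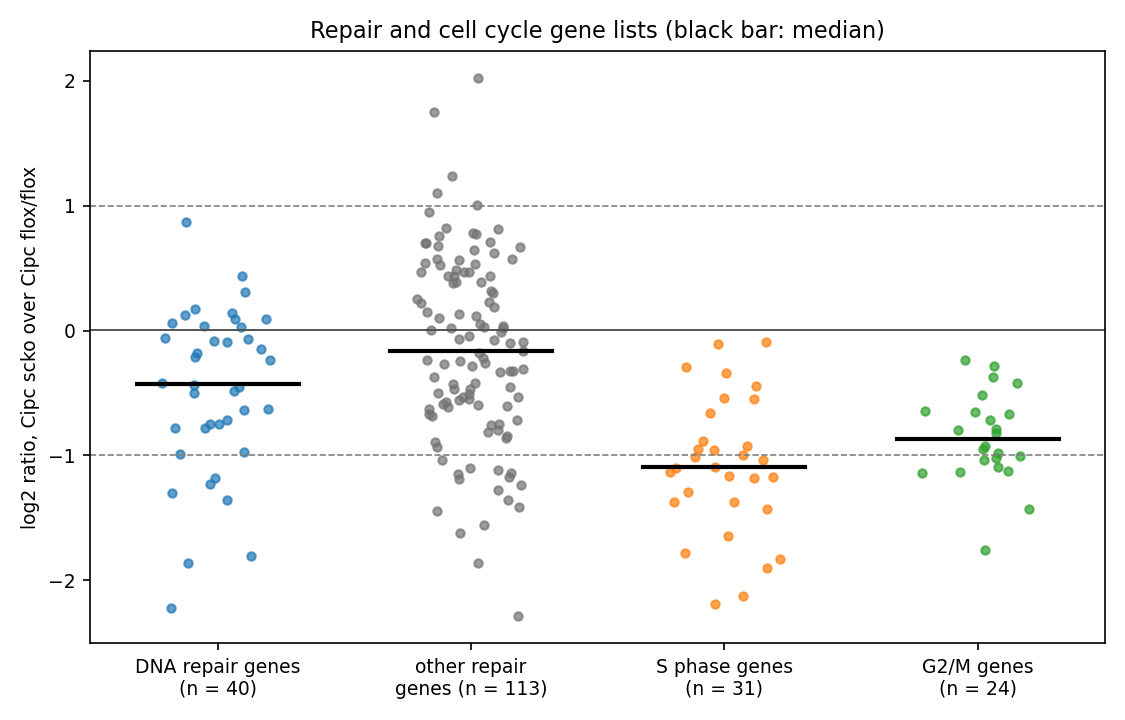
Log2 ratio (scko over flox/flox) for the 40 repair genes, 113 other repair genes, 31 S phase genes and 24 G2/M genes. Points are genes, black bars medians and dashed lines 2-fold, and the thin solid line is the median of all genes past the filter (0.01). Medians are -0.43, -0.16, -1.09 and -0.87, and no S phase or G2/M gene lies above 0.

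Across the 40 genes, which are not independent replicates and share both libraries, the log2 ratio was related to the mean level by Pearson r = -0.15 and Spearman rho = -0.18, and by 0.04 and 0.01 to the length of the longest transcript. For the median ratio of the gene's chromosome the values were 0.28 and 0.25. Chromosome medians ran from -0.68 (chromosome 15) to 0.40 (chromosome 7) among the autosomes. On chromosome 7 lie Fanci, Blm, Palb2 and Xrcc1, whose ratios relative to that median were lower, at -0.85 for Fanci, -0.55 for Blm, -0.47 for Xrcc1 and -0.31 for Palb2. On chromosome 9 the value for Mre11a was -0.31 in place of -0.06. The ratios of the 7 called genes relative to their chromosomes ran from -2.21 (Xrcc5) to -1.06 (Rad50).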

How the data were processed

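Whole-number counts per Ensembl gene were deposited by the authors for 1 library per genotype, and FPKM per library, per the file headers. GRCm38, StringTie 1.3.0, HISAT2 2.0.4 and CASAVA are listed without roles, per the submitters' processing notes. Counting tool, annotation and strand setting: not given in the sources used here.

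Symbols came from GENCODE vM21 (16116 of 16190 genes). Counts were scaled with TMM (edgeR 4.0.16, R 4.3.3). The filter kept genes reaching a CPM of 1 in either library and 20 counts over both. Log2 ratios used a prior count of 0.5. Intervals were exact binomial (Clopper-Pearson) at 95%, or the exact conditional odds ratio for pairs, and cover counting error only (without molecular identifiers, reads are not independent molecules). No p-value was computed. On counts simulated with counting error alone 95.2% of 12584 intervals held the true ratio. That checks the computation only and not the spread between libraries. Similar transcripts were sought with BLAST+ 2.17.0 (90% identity, 300 bases).

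Members and lists were chosen with earlier results of these data known. Named were all members, neighbours past the filter, Cipc, Mki67, Cdkn1a, and of each comparison list of at least 5 genes the 2 highest and 2 lowest with a mean CPM of at least 5. Rmi2, Mlh3, Dclre1c, Atrip, Shprh, the cell type markers, Cdkn2a, Xist, Ddx3y and the genes sharing exons were named after their values were seen. A few genes that this rule covers are not reported here, and 1 neighbour pair is not drawn. Alternatives are in the closing section. DESeq2 1.42.0 gave 1 scaling.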

Additional observations from a re-analysis of the deposited data

How the results depend on the processing

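Between 5 (FPKM with a pseudocount of 1) and 10 (ratios relative to the chromosome median) repair genes were called lower under the scaling, unit, filter and prior alternatives, against 7, and 0 were higher. In those 2 settings 11.7% and 15.0% of all genes were called lower, and 11.5% and 20.9% higher. Scaling by library totals gave 9 lower, where 18.8% of all genes were called lower. How near the repair genes lay to the share of all genes thus depends on the setting. A fold limit of 1.5 gave 16 lower and 1 higher (Rad54b), where 25.8% and 29.0% of all genes were called. Of 49 alternative values of the 7 called genes 49 were below 0 and 47 stayed called: Fancm and Exo1 ended with FPKM and a pseudocount of 1 (-0.65 and -0.70), which weighs on low FPKM. Rad54l and Fanca passed 2-fold with scaling by totals (-1.13 and -1.11), and Nbn relative to its chromosome (-1.01). Of 337 alternative values of single genes and pairs 309 lay within the counting interval, 28 outside it and 0 turned a call around. Brca1 and Fancb, still called, were -1.09 and -1.10 with FPKM and a pseudocount of 1. The mismatch repair median was -0.44 with FPKM and a pseudocount of 1. The single strand break repair median was -0.04 with totals (-0.0408), with FPKM and 0.1 (-0.0405) and with FPKM and 1 (-0.0383). The S phase median was -1.23 with totals and with FPKM and 0.1. Other repair genes called lower were 5 with FPKM and 1 and 32 with a limit of 1.5. Those called higher were 3 with totals, 3 with FPKM and 0.1, 3 relative to the chromosome, 1 with FPKM and 1, and 18 with a limit of 1.5. G2/M genes called lower were 19 with that limit. The cause of these moves was not tested, except that a lower fold limit admits more genes. Further settings were chosen after seeing the data. Leaving out genes that share at least 5% of exon bases with another analysed gene kept 7 lower, with a median of -0.23. Leaving out X-linked Fancb left 6. No paired analysis was possible because each genotype has 1 library, and for the same reason no replicate could be left out. Depth limits Rad51b most, with an interval 1.59 wide in log2.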
